A study of Mus musculus with 29 samples.

Results

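The enzymes that oxidize and conjugate foreign compounds were described in the colon of mice with dextran sodium sulphate (DSS) colitis. Members were all genes whose symbol belongs to the cytochrome P450 families 1 to 4 (Cyp), the UDP-glucuronosyltransferases (Ugt), the glutathione transferases of the classes alpha, mu, pi, theta, kappa and omega (Gst), the sulfotransferases (Sult) or the carboxylesterases (Ces). They were chosen by name and not by any measured value. This gave 130 genes, with 132 probe sets, of 19938 genes with a probe set of their own: 69 Cyp, 11 Ugt, 18 Gst, 16 Sult and 16 Ces genes. Among the Cyp genes, Cyp2d13, Cyp2d37-ps and Cyp4f41-ps are listed in RefSeq as transcribed pseudogenes and not as protein coding. The array reads a gene through 1 or more probe sets, each made of several short probes, and a gene with several was represented by the one of highest mean. A further 19 probe sets that name several genes at once also match these families. They hold 26 symbols found nowhere else on the array, among them all Ugt1a genes, Gsta1, Gsta2 and Gstp2, so these genes have no value of their own here.

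Breakdown of foreign compounds runs in steps. Cytochromes P450 and carboxylesterases expose or add a reactive group, and Ugt, Sult and Gst enzymes then attach a sugar acid, a sulphate or glutathione, which makes the product soluble and ready for export. The liver does most of this work, but the intestinal epithelium meets dietary and bacterial compounds first and carries its own set of these enzymes. The genes are commonly read by nuclear receptors and other sensors, such as the pregnane X receptor and the aryl hydrocarbon receptor. Several members also handle the body's own lipids, hormones and vitamins.

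All arrays came from female C57BL6J mice, and no gene had been altered. The labels give an age of 6 weeks, which by the methods was the age at the start of the study. The mice were older, and matched for age, when the tissue was taken. RNA of 29 mice, 1 per array, was hybridized to Affymetrix Mouse Gene ST arrays. There were 5 control mice on normal drinking water, 4 mice with acute colitis (7 days of DSS), and 5 mice each after 1, 2 and 3 cycles, where a cycle is 7 days of DSS and 2 weeks of recovery. In a last group of 5 mice, called recovery, 2 cycles were followed by an additional recovery of 3 weeks. According to the methods, the DSS concentration was higher in the later cycles, and the tissue came from the most infiltrated distal part of the colon, so that it is whole gut wall and no sorted cell type. In such tissue, fewer cells of a type and less RNA per cell cannot be told apart. An additional array of acute colitis was not analysed here. Each array is named by its label, a letter and a digit (A1, B2), and the meaning of the letter was not given in the sources used here.

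The values are log2 expression values, and array medians lay between 6.02 and 6.14. The 11 pan-epithelial markers were called in no comparison, with a mean of 10.86 to 10.94 on control arrays and 10.72 to 10.96 in acute colitis. Of 8 hepatocyte markers 5 to 7, albumin included, were under the median probe set in each group. Smooth muscle markers were lower in acute colitis in 7 of 8 cases, and neutrophil markers higher in 7 of 8. The arrays also fall into 2 separate sets by 1 probe set with no gene listed. It reads at most 8.14 on 14 arrays (the low set) and at least 11.09 on 15 (the high set). This probe set was picked for the widest gap among the 12101 with no gene listed, so some split was bound to be found. All controls and all 1-cycle arrays are in the low set and all 3-cycle and recovery arrays in the high set. Acute colitis (B2 and B3 low, B4 and C3 high) and 2 cycles (D4 and D5 low, E2, E3 and E4 high) are split. For 3 cycles and recovery against control, the set and the group therefore cannot be told apart. A fit with the set as a covariate takes the size of the set difference from acute colitis and 2 cycles alone.

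Groups were compared with limma, a linear model fitted to all 35511 probe sets with a spread shared among them. A gene was called lower or higher when its p-value, adjusted over all probe sets by the Benjamini-Hochberg method, was under 0.05 and its fold change above 2. All adjusted p-values below are from this limma fit, and differences are on the log2 scale with their standard error (SE). Whether the mice of a group shared a cage is not given in the sources used here.

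In acute colitis 16 of the 130 members (12.3%) were called lower than control, where 1.4% of all probe sets were, and 1 member (0.769%) was called higher, where 1.38% of all probe sets were. The lower members were the P450 genes Cyp2c68, Cyp2c67, Cyp2d12, Cyp2d13, Cyp2d22, Cyp2f2 and Cyp2s1, the transferases Gstm1, Gstm3, Gstm6, Gstm7, Gstt1, Sult1a1, Sult1c2 and Ugt2b35, and the esterase Ces2g. By adjusted p alone 34 members (26.2%) were lower, against 11.6% of all probe sets. The median change of all 130 members was -0.00, beside 0.04 over all probe sets, so the decrease lay in a minority of genes. The mean over all arrays was under that of the median probe set (6.07) for 77 members, and the files give no background level to say which of these were detected.

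Fewer members were called after the cycles. After 1 cycle 3 members (2.31%) were lower, with 0.186% of all probe sets, and after 2 cycles 3 members (2.31%), with 0.124%. After 3 cycles 8 members (6.15%) were lower, with 0.597% of all probe sets, and in recovery 7 members (5.38%), with 0.563%. Counted over genes in place of probe sets, the lower shares were 1.66% in acute colitis, 0.196% after 1 cycle, 0.15% after 2 cycles, 0.291% after 3 cycles and 0.221% in recovery. By adjusted p alone the numbers were 13 (10%), 7 (5.38%), 20 (15.4%) and 19 (14.6%), beside 3.54%, 2.51%, 9.26% and 6.61% of all probe sets. With the set of arrays as a covariate, 0 members were called lower after 2 cycles, and Cyp2c67 was the 1 member called lower after 3 cycles (-1.60, adjusted p = 0.0137) and in recovery (-1.61, adjusted p = 0.018).

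Calls in the upward direction were few among the members and among all probe sets. No member was called higher by limma after 1 cycle or after 3 cycles, where 0.87% and 1.02% of all probe sets were. At an unadjusted limma p under 0.05, 7 and 14 members were higher, beside 7.67% and 16.6% of all probe sets. After 2 cycles and in recovery 1 member each was higher, beside 0.907% and 1.08% of all probe sets. In an F test over the 6 groups 40 members (30.8%) differed at an adjusted p under 0.05, as did 25% of all probe sets. Across the 5 groups given DSS, 17 of the 130 members were called lower at least 1 time, 2 were called higher and 111 were in no call. Of all 35511 probe sets, 669 were called lower and 798 higher at least 1 time. No member was called lower in all 5, but Cyp2c68, Cyp2d12, Sult1a1, Sult1c2 and Ugt2b35 were called lower in 4. Among all probe sets 45 were called lower in 4 or more groups. By adjusted p alone Ces2b, Cyp2d22, Gstt1 and Ugt2b35 were lower in all 5, a count not made over all probe sets.

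**Figure D1:**
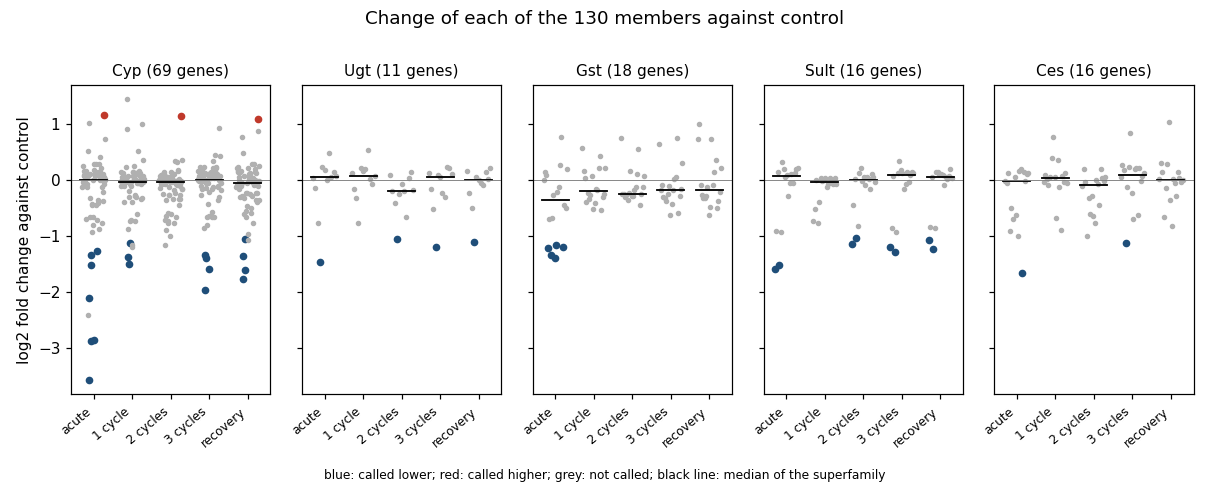
Change of each member against control (vertical axis, log2 fold change) in the 5 groups given DSS, with 1 panel per superfamily. A point is a gene, blue where called lower, red where called higher and grey where not called, and the black line is the median of the superfamily. Only the Gst median stands clearly under 0 in acute colitis (-0.36), and the strongest decreases are single Cyp genes.

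The strongest decrease was in the P450 subfamily Cyp2c, whose enzymes oxidize drugs and also arachidonic acid. Cyp2c68 read 8.84, 7.45, 8.31, 7.16 and 7.61 on the control arrays and 4.91, 3.64, 4.05 and 4.58 in acute colitis. All acute arrays were far under all controls, and under the median probe set. The values were 6.69, 6.33, 7.39, 6.09 and 5.95 after 1 cycle and 6.50, 7.58, 6.84, 6.56 and 7.40 after 2 cycles, where both groups reached into the control range. They were 5.51, 6.16, 6.27, 6.06 and 5.54 after 3 cycles and 5.70, 6.80, 6.34, 5.56 and 6.12 in recovery, with no overlap with control. The difference in acute colitis was -3.58 (SE 0.34, adjusted p = 8.5e-08), a level 11.9-fold lower than in controls. It was -1.38 after 1 cycle (adjusted p = 0.00805), -0.90 after 2 cycles (adjusted p = 0.106, not called), -1.97 after 3 cycles (adjusted p = 0.000236) and -1.77 in recovery (adjusted p = 0.000927).

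Cyp2c67 followed on its own probe set. It read 7.20, 6.38, 6.88, 6.18 and 6.39 in control mice and 4.46, 4.27, 4.86 and 4.42 in acute colitis, again without overlap. The difference was -2.10 (SE 0.23, adjusted p = 4.23e-07). It was called lower as well after 3 cycles (-1.34, adjusted p = 0.000214) and in recovery (-1.36, adjusted p = 0.000284), and it missed the fold threshold after 1 cycle (-0.87, adjusted p = 0.0126). These 2 genes are near copies of each other, so their probes may read RNA of both, and of Cyp2c40 and Cyp2c69. A probe set listed for all 4 genes was lower too, by -3.04 in acute colitis (SE 0.29, adjusted p = 8.16e-08) and -1.09 after 1 cycle. The 13 Cyp2c members did not move as 1 group. Their median change in acute colitis was 0.03, and the other 11 members were not called.

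The promoters of 4 Cyp2c genes are printed because the genes lie on the same chromosome and yet differ in their values: Cyp2c67 and Cyp2c68, which were lower in all acute mice, and Cyp2c65 and Cyp2c55, which differed between the acute mice (given further on). Each line shows the 150 bases before the start of the gene, on the strand of the gene, from RefSeq for the build GRCm38.p6. Capitals mark matches, on either strand, to 6 motifs searched: CAAAGTCC (a motif of the type bound by HNF4), AGGTCA (nuclear receptors), GCGTG (aryl hydrocarbon receptor core), TGACNNNGC (core of the antioxidant response element), GTTAAT (HNF1) and TATAAA (a core promoter element).
Cyp2c68, chr19:39741102-39741251, minus strand: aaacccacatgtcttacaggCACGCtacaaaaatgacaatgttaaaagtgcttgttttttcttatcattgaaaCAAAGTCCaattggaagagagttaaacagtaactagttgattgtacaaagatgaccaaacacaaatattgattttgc
Cyp2c67, chr19:39649043-39649192, minus strand: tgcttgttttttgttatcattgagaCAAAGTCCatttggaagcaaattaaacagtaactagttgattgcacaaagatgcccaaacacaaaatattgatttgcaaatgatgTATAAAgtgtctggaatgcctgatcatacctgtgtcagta
Cyp2c65, chr19:39060856-39061005, plus strand: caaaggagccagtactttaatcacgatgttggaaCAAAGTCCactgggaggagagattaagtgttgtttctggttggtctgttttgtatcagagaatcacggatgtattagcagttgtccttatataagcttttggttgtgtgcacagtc
Cyp2c55, chr19:39006869-39007018, plus strand: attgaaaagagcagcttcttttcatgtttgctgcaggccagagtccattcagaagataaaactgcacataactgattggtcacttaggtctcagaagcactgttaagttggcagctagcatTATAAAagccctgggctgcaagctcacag
CAAAGTCC stood at -77 from the start in Cyp2c68, at -125 in Cyp2c67 and at -116 in Cyp2c65, and these letters are not in the Cyp2c55 window. TATAAA was found at -40 in Cyp2c67 and at -29 in Cyp2c55. In Cyp2c68 the capitals CACGC are GCGTG read on the other strand. The longest run of bases shared by 2 of these windows was 22 bases, between Cyp2c67 and Cyp2c68, and it was 11 bases or fewer for any other pair.

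Over the whole RefSeq window, 250 bases before to 50 after the start, CAAAGTCC was found in 9 of the 106 members with a promoter entry (8.49%) and in 1.63% of all 27025 genes. The 9 genes were Cyp2c65, Cyp2c66, Cyp2c67, Cyp2c68, Cyp2c70, Cyp3a11, Cyp3a16, Sult1b1 and Cyp4f18. They include members that were lower, higher and not called, and several are neighbours with related sequence. TATAAA was in 32.1% of the members and 15.7% of all genes. The shares were 25.5% and 18.1% for AGGTCA, 13.2% and 8.24% for GTTAAT, 18.9% and 35.2% for GCGTG, and 8.49% and 14% for TGACNNNGC. A match is a description of the letters and no proof of binding. Of the 17 members called lower, 13 had a promoter entry.

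The Cyp2d genes, relatives of the human drug oxidase CYP2D6, moved together more than Cyp2c did. Of 10 members 9 were under 0 in acute colitis, with a median of -0.73, 3 were called lower and 7 were lower by adjusted p alone. In recovery the median was still -0.51, with 2 called. Cyp2d12 read 8.23, 6.58, 8.09, 7.04 and 6.87 in controls and 4.75, 4.67, 4.38 and 4.14 in acute colitis. No acute array came near a control, and the difference was -2.88 (SE 0.34, adjusted p = 1.01e-06), or 7.35-fold lower. It was -1.51 after 1 cycle (adjusted p = 0.00408), -0.77 after 2 cycles (not called), -1.39 after 3 cycles (adjusted p = 0.00406) and -1.61 in recovery (adjusted p = 0.00186).

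Cyp2d22 showed the tightest values of the subfamily members named here. It read 9.43, 8.93, 9.27, 9.04 and 9.04 in controls and 7.98, 8.0, 7.42 and 7.10 in acute colitis, a difference of -1.51 (SE 0.15, adjusted p = 1.72e-07). In each of the other groups it was lower by less than the fold threshold, by -0.73, -0.73, -0.66 and -0.55 from 1 cycle to recovery, with adjusted p-values of at most 0.0133. No array given DSS reached the control range. Cyp2d13, a transcribed pseudogene in RefSeq, was lower by -1.34 in acute colitis (adjusted p = 0.00016), by -1.13 after 1 cycle and by -1.06 in recovery. Without control array A1 its calls after 1 cycle and in recovery fell under the fold threshold, at -0.96 and -0.89. The Cyp2d genes too are similar in sequence, and shared probes may let 1 gene's RNA count for another.

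Cyp2f2, known from airway club cells, where it activates naphthalene, was among the most reduced genes. It read 9.57, 8.03, 9.22, 8.48 and 8.69 in controls and 6.16, 5.42, 6.00 and 6.17 in acute colitis. The acute arrays stood together and apart from the controls, with a difference of -2.86 (SE 0.42, adjusted p = 1.46e-05). After 1 and 2 cycles and in recovery it was not called, and after 3 cycles it was lower by -1.59 (adjusted p = 0.00658), where array F1 (5.79) was below the others (7.30 to 7.78). Cyp2s1, a P450 of epithelia, read 10.15, 10.10, 10.29, 10.20 and 10.10 in controls and 9.47, 8.47, 8.77 and 8.86 in acute colitis. The difference was -1.27 (SE 0.18, adjusted p = 9.39e-06), and none of the arrays given DSS overlapped the controls.

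Other P450 genes changed less or were not called. Cyp2r1, which makes 25-hydroxyvitamin D, was lower by -0.71 in acute colitis (adjusted p = 0.000123), -0.57 after 3 cycles and -0.60 in recovery, below the fold threshold. Cyp4f13 was lower by -0.77 (adjusted p = 0.000105), Cyp2u1 by -0.36 (adjusted p = 0.00139) and Cyp3a13, a drug oxidase of the gut, by -0.87 (adjusted p = 0.0425) in acute colitis. None of the 6 Cyp3 members, 5 Cyp2b members or 3 Cyp1 members was called against control, with medians of 0.15, 0.09 and -0.11 in acute colitis. Cyp1b1, Cyp2e1 and Cyp2j6 were not called either. By adjusted p alone, Cyp3a44 was higher than control in 3 of the groups given DSS. Cyp2g1 was higher in 1 of them (0.29 in acute colitis), and Cyp2j9 was lower in 1.

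**Figure D2:**
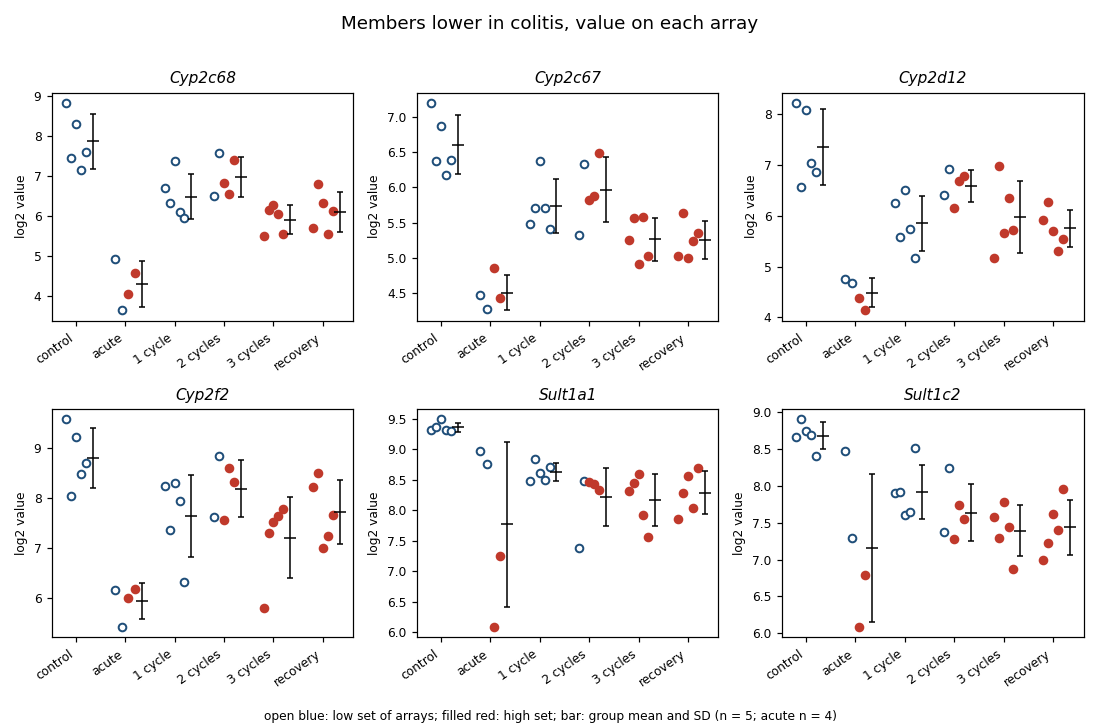
Log2 value (vertical axis) of 6 members on each array, by group. Open blue points are arrays of the low set, filled red points arrays of the high set, and the bar gives the group mean and SD (n = 5, acute n = 4). Cyp2c68, Cyp2c67, Cyp2d12 and Cyp2f2 are low on all 4 acute arrays, whereas Sult1a1 and Sult1c2 are lowest on B4 and C3.

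Among the conjugating enzymes, 2 of the 16 sulfotransferases, Sult1a1 and Sult1c2, were called lower, in the same 4 groups each. Sult1a1, which sulphates phenols, read 9.31, 9.37, 9.49, 9.32 and 9.30 in controls, 8.98, 8.76, 6.09 and 7.25 in acute colitis and 8.47, 8.84, 8.61, 8.50 and 8.71 after 1 cycle. It read 7.38, 8.48, 8.46, 8.42 and 8.34 after 2 cycles, 8.32, 8.44, 8.59, 7.92 and 7.56 after 3 cycles and 7.86, 8.29, 8.57, 8.03 and 8.69 in recovery. Not a single array given DSS reached the controls, which span less than any other group. The differences were -1.59 in acute colitis (SE 0.37, adjusted p = 0.00203), -0.73 after 1 cycle (adjusted p = 0.24), -1.14 after 2 cycles (adjusted p = 0.0497), -1.19 after 3 cycles (adjusted p = 0.0175) and -1.07 in recovery (adjusted p = 0.0409). The call after 2 cycles was lost whichever of the 10 arrays compared was left out (-0.93 to -1.21), that after 3 cycles without G3 (-1.04), and that in recovery without M1, M3, N2 or any 1 control array (-0.96 to -1.09). With the set of arrays as a covariate, none of these 3 was called, at -0.70 (adjusted p = 0.522), -0.45 (adjusted p = 0.776) and -0.33 (adjusted p = 0.872).

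Sult1c2 read 8.67, 8.90, 8.74, 8.69 and 8.40 in controls and 8.47, 7.29, 6.09 and 6.79 in acute colitis, where only B2 reached the control range. The difference was -1.52 in acute colitis (adjusted p = 0.000512), -1.04 after 2 cycles (adjusted p = 0.0284), -1.29 after 3 cycles (adjusted p = 0.00318) and -1.24 in recovery (adjusted p = 0.00601), and it was -0.77 after 1 cycle (not called). Within the low set alone the 2-cycle difference was not called (-0.87, adjusted p = 0.238), nor was it without D4, E2, E4, A1, A2, A5 or L1 (-0.95 to -1.05). With the set as a covariate the differences after 2 cycles, after 3 cycles and in recovery were -0.56, -0.47 and -0.43, with adjusted p-values of 0.494, 0.653 and 0.744. Sult1d1, which acts on catecholamines, was lower by -0.93 after 3 cycles (adjusted p = 0.0497). Over all 16 Sult members the median change stayed between -0.04 and 0.08 in the 5 groups. The mean of their values was 5.50 to 5.59 on control arrays and at most 5.48 on any array given DSS. The mean was thus lower in all 5 groups while the median hardly moved. By adjusted p alone 4 Sult members were lower and 1 higher after 3 cycles.

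Ugt2b35, a glucuronosyltransferase, read 7.40, 6.83, 7.32, 7.12 and 6.99 in controls and 6.73, 5.54, 4.99 and 5.44 in acute colitis. The values lay from 6.14 to 6.54 after 1 cycle, from 5.53 to 6.47 after 2 cycles, from 5.69 to 6.26 after 3 cycles and from 5.79 to 6.17 in recovery. All 24 arrays given DSS were under all controls. The difference was -1.46 in acute colitis (SE 0.22, adjusted p = 2.55e-05), -0.77 after 1 cycle (adjusted p = 0.0245, under the fold threshold), -1.06 after 2 cycles (adjusted p = 0.00271), -1.19 after 3 cycles (adjusted p = 0.00051) and -1.11 in recovery (adjusted p = 0.00133). The call after 2 cycles fell under the fold threshold without D4 (-0.92), without A1 (-0.99) and with array weights (-0.98), and within the low set it had an adjusted p of 0.0803. With the set as a covariate the calls after 2 cycles (-0.85, adjusted p = 0.0759), after 3 cycles (-0.85, adjusted p = 0.186) and in recovery (-0.77, adjusted p = 0.294) were lost. Ugt2b34 was lower by -0.77 in acute colitis (adjusted p = 0.000753), and the other 10 Ugt members were not called in any group.

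The carboxylesterases hydrolyse esters and amides, prodrugs among them. Ces2g read 8.45, 7.82, 8.31, 8.13 and 7.95 in controls and 6.81, 6.05, 6.75 and 6.28 in acute colitis, without overlap, a difference of -1.66 (SE 0.17, adjusted p = 2.87e-07). In recovery it read 7.79, 8.18, 7.75, 7.51 and 8.03, back within or close to the control range (-0.28, adjusted p = 0.276). Ces2b was lower by -0.99 in acute colitis (adjusted p = 0.000923), just under the fold threshold. Ces1d was called lower after 3 cycles only (-1.12, adjusted p = 0.0291), with overlap, and this call was lost when G2, G3, A5, L1 or L2 was left out (differences of -0.94 to -1.12). Ces1g was not called in any comparison, and its difference in recovery was 1.03 (adjusted p = 0.138).

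The glutathione transferases, which protect cells against electrophiles, split by class. Of the 7 mu-class genes (Gstm) all were under 0 in acute colitis, with a median of -1.15, and 4 were called lower. Gstm1 read 10.32, 10.01, 10.33, 10.11 and 10.13 in controls and 9.92, 8.89, 8.20 and 8.86 in acute colitis, with B2 just under the lowest control and the other three far below. The difference was -1.21 (SE 0.20, adjusted p = 5.08e-05). Gstm6 read 7.67, 7.00, 7.64, 7.34 and 7.23 in controls and 6.58, 5.61, 5.47 and 6.24 in acute colitis, a difference of -1.40 (SE 0.22, adjusted p = 4.11e-05). Gstm3 differed by -1.33 (adjusted p = 0.000299) and Gstm7 by -1.15 (adjusted p = 5.72e-05). In the other groups no Gstm gene was called and the class medians were -0.35, -0.29, -0.32 and -0.32 from 1 cycle to recovery. Mu-class genes are similar in sequence, so their probe sets are not fully independent.

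Gstt1, of the theta class, read 8.04, 7.67, 8.13, 7.86 and 7.91 in controls and 6.93, 6.72, 6.70 and 6.53 in acute colitis. Its difference of -1.20 had a small error (SE 0.12, adjusted p = 9.98e-08), and it was lower by -0.55, -0.44, -0.60 and -0.50 from 1 cycle to recovery, each with an adjusted p under 0.05. The pi-class gene Gstp3 went the other way. It read 6.07, 5.64, 5.94, 5.67 and 5.74 in controls and 6.36, 6.38, 6.94 and 6.66 in acute colitis, higher by 0.77 (adjusted p = 0.0046), and by 0.74 after 3 cycles (adjusted p = 0.00677), under the fold threshold. Gstp1, also of the pi class, and Gstk1, of the kappa class, were not called. In the alpha class, Gsta4 was higher than control in recovery by adjusted p alone. Probe sets that name Gsta1 and Gsta2 together were higher by 0.53 to 0.65 in acute colitis (adjusted p 0.0185 to 0.0443). In recovery they were higher by 0.58 to 0.77 (adjusted p 0.018 to 0.024), and all were under the fold threshold. After the cycles their adjusted p-values were at least 0.0707.

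**Figure D3:**
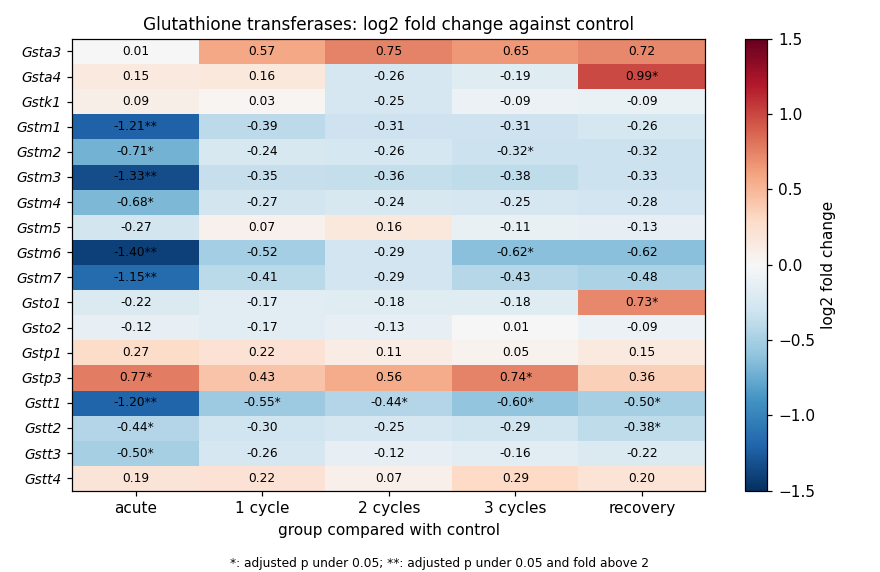
Log2 fold change against control of the 18 glutathione transferases (rows) in the 5 groups given DSS (columns), with red for higher and blue for lower. A single asterisk marks an adjusted p under 0.05 and a double one a fold change above 2 as well. The double marks are all in acute colitis, in Gstm1, Gstm3, Gstm6, Gstm7 and Gstt1.

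Only Cyp4f18 and Cyp4f39 were called higher than control. Cyp4f18, which inactivates leukotriene B4 in neutrophils, read 5.65, 5.68, 5.56, 5.57 and 5.58 in controls and 5.88, 7.56, 6.86 and 6.80 in acute colitis. Every array given DSS was above every control, and the values were 6.22 to 6.99 after 1 cycle and 6.35 to 7.03 after 2 cycles. The difference was 1.17 in acute colitis (SE 0.24, adjusted p = 0.000854) and 1.14 after 2 cycles (adjusted p = 0.00302), which were called. It was 1.00 after 1 cycle, 0.93 after 3 cycles and 0.87 in recovery, with adjusted p-values of at most 0.0148 but a fold under the threshold. Without B3 the acute difference was 0.90, no longer called.

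Neutrophil markers moved with Cyp4f18 in acute colitis, as did markers of monocytes and macrophages. The mean of the 8 markers was 5.42 to 5.55 on control arrays and 5.99, 9.02, 7.05 and 7.33 on B2, B3, B4 and C3, so both were highest on B3 and lowest on B2. After 1 cycle Cyp4f18 was above all controls, and the marker mean was 6.02 to 6.50. Of the 8 markers 6 were then under the median probe set, beside 7 in controls. Their median change after 1 cycle was 0.86, with 5 higher at an unadjusted limma p under 0.05 and 0 called. On recovery array M5 the neutrophil mean was 5.41, under all controls. Monocyte and macrophage markers (8) had means of 6.88, 8.44, 7.68 and 7.96 on the same acute arrays, and 6.56 to 7.04 in controls. Of these, 5 were called higher in acute colitis and 2 to 3 in each of the other groups. The part of either cell type in the result was not tested. Cyp4f40 was higher by 0.74 in acute colitis (SE 0.09, adjusted p = 1.31e-06), with 9.37, 9.62, 9.04 and 9.25 against 8.52 to 8.63 in controls. It was above all controls in each of the other groups too, by 0.25 to 0.42. By adjusted p alone it was higher in 4 groups, but not in recovery.

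Recovery was compared with 2 cycles to see the effect of the additional rest. Of the members 2 (1.54%) were called higher, Cyp4f39 and Gsta4, beside 0.152% of all probe sets. By limma 0 members were called lower, beside 0.00845% of all probe sets. At an unadjusted p under 0.05, 12 members and 4% of all probe sets were lower. Cyp4f39, which oxidizes very long fatty acids for the skin barrier, read 7.04, 6.64, 5.27, 5.67 and 7.23 in recovery, 5.25, 5.27, 5.11, 5.35 and 5.27 after 2 cycles and 5.13, 5.41, 5.44, 5.19 and 5.24 in controls. Array M5 stayed at the level of the other groups and the other recovery arrays were above them. The difference was 1.12 from 2 cycles (adjusted p = 0.0337) and 1.09 from control (adjusted p = 0.00335).

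Gsta4, which clears the lipid peroxidation product 4-hydroxynonenal, read 10.11, 9.87, 8.56, 8.96 and 9.97 in recovery and 8.88, 8.39, 7.83, 7.95 and 8.20 after 2 cycles. M5 again was the lowest recovery array, and the difference was 1.25 (adjusted p = 0.0303). Gsto1, an omega-class enzyme that reduces dehydroascorbate, read 11.28, 10.99, 9.70, 10.37 and 11.09 in recovery and 9.75, 9.89, 9.74, 9.71 and 9.82 after 2 cycles, higher by 0.90 (adjusted p = 0.0221), under the fold threshold. Against 2 cycles the calls of Cyp4f39 and Gsta4 were lost when D5, E2, E3, E4, M1, M3 or N3 was left out. That of Cyp4f39 was also lost without D4. With only the groups compared the adjusted p was 0.337 for Cyp4f39 and 0.284 for Gsta4, and within the high set 0.667 and 0.4. The Cyp4f39 call against control was lost without M1 (0.92) or N3 (0.88). It was also lost with only the groups compared (adjusted p = 0.0522) and with the set as a covariate (0.97, adjusted p = 0.235). Squamous epithelium markers moved with these genes. Of 11 such markers, keratins 5 and 14 among them, 9 were called higher in recovery than in control, and their mean on M1, M3, M5, N2 and N3 was 9.91, 9.67, 5.38, 7.75 and 9.39, beside 5.32 to 5.48 in controls. Array G3 of the 3-cycle group was also high in these markers (7.46), with Cyp4f39 at 5.62, the highest outside recovery. The part of these cells in the result was not tested.

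**Figure D4:**
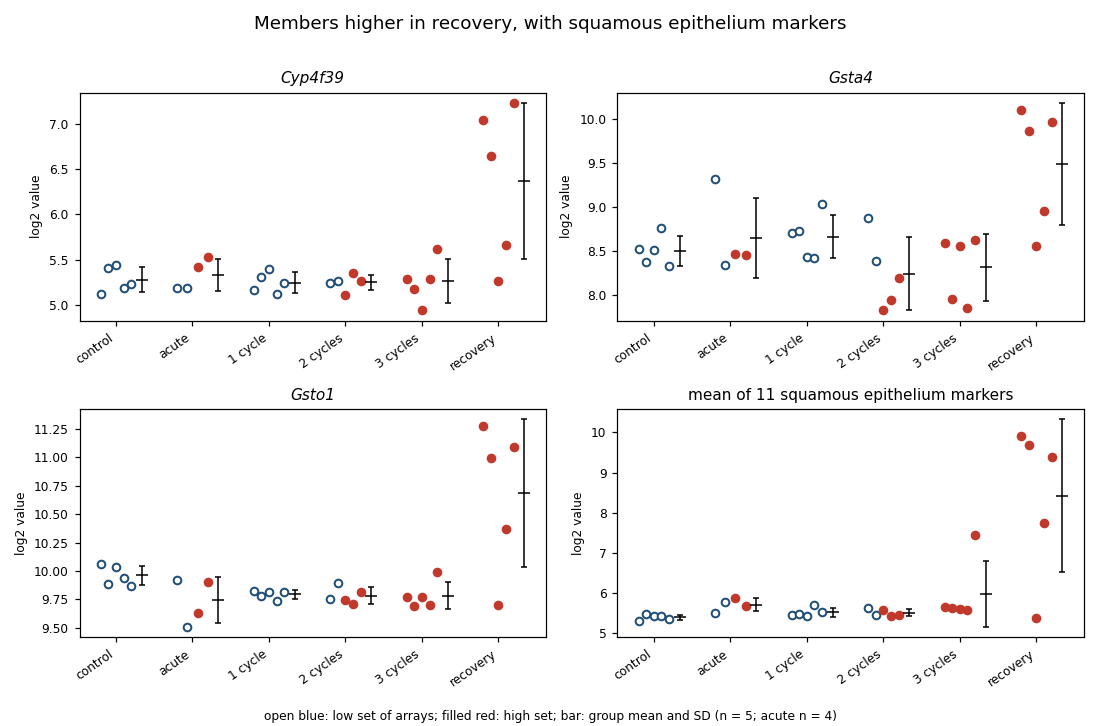
Log2 values on each array of Cyp4f39, Gsta4, Gsto1 and the mean of 11 squamous epithelium markers, by group. Open blue points are arrays of the low set and filled red points arrays of the high set, and bars give group mean and SD (n = 5, acute n = 4). In all 4 panels the recovery arrays M1, M3 and N3 are highest and M5 is the lowest of the recovery group.

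Acute colitis was also compared with the mean of the 1-, 2- and 3-cycle groups. Of the members 5 (3.85%) were lower in acute colitis, beside 0.631% of all probe sets, and 23 (17.7%) by adjusted p alone, beside 5.66%. They were Cyp2c68 (-2.16, adjusted p = 1.16e-05), Cyp2f2 (-1.73, adjusted p = 0.00129), Cyp2d12 (-1.66, adjusted p = 0.000247), Cyp2c67 (-1.15, adjusted p = 0.000186) and Ces2g (-1.0, adjusted p = 4.1e-05). By limma 0 members were called higher, beside 0.282% of all probe sets. At an unadjusted p under 0.05, 5 members and 13.2% of all probe sets were higher. Ces2g sat on the fold threshold and fell under it in some of the other fits. Cyp2w1 was lower by -0.67 (adjusted p = 0.00163). These comparisons share their arrays with those against control.

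Within acute colitis a group of these enzymes differed strongly between the mice. Both arrays of the low set, B2 and B3, were above both arrays of the high set, B4 and C3, by more than 1 log2 unit in 14 of the 130 members (10.8%) and in 0.335% of all probe sets. The reverse held for 0 members and for 0.0704% of all probe sets. This split was chosen after the values were seen and is given as a description. The set of the array and the mouse cannot be told apart.

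Cyp2c55, an oxidase of arachidonic acid, had the widest such gap of all 35511 probe sets, and Cyp2c65 the next. Cyp2c55 read 10.58, 11.28, 11.31, 11.21 and 11.16 in controls, and 11.34, 11.60, 4.26 and 7.63 on B2, B3, B4 and C3. It was thus at the control level in the first 2 acute mice and far under it in the others, so that the mean difference of -2.40 had an SE of 0.90 and was not called (adjusted p = 0.055). Cyp2c65 read 10.60, 11.29, 5.06 and 7.79 on the same arrays, with controls from 6.24 to 9.33, so B2 and B3 were above the controls. Ces1f (8.48, 8.42, 5.59 and 5.91, controls 7.38 to 7.99) and Cyp2d26 (8.64, 9.39, 5.92 and 6.43, controls 7.82 to 8.42) gave the same picture. The gap was also over 1 for Ugt2b5, Cyp2c66, Ces2a, Ces1d, Sult1a1, Cyp3a13, Sult1d1, Cyp2e1, Ces2e and Ces2b.

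Within the low set, B2 and B3 were compared with the 5 controls. For genes already seen to read high on these 2 arrays, this fit is a description and no separate support. In that fit 12 members (9.23%) were called lower, where 0.966% of all probe sets were, and 4 (3.08%) higher, where 1.16% were. Cyp2c65 (2.77, adjusted p = 0.0281), Cyp2c66 (2.21, adjusted p = 0.00206) and Ugt2b5 (1.54, adjusted p = 0.0115) were higher in these 2 mice, as was Cyp4f18 (1.11, adjusted p = 0.0496). Cyp2c68 (-3.60, adjusted p = 0.00138), Cyp2d12 (-2.65, adjusted p = 0.00328) and Cyp2f2 (-3.01, adjusted p = 0.00445) were as low there as over all 4 acute arrays. Sult1a1 (-0.49, adjusted p = 0.178), Sult1c2 (-0.80, adjusted p = 0.138), Gstm1 (-0.78, adjusted p = 0.0302) and Gstm3 (-0.81, adjusted p = 0.0372) were no longer called. Without B4 and C3 the acute differences of these last 4 genes were smaller, and Gstm1 and Gstm3 were still lower by adjusted p alone. Gstm1 itself read alike on B3 and C3.

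Epithelial markers were set beside this split. The mean of the pan-epithelial markers was 10.95, 10.80, 10.72 and 10.96 on B2, B3, B4 and C3, without an order that follows the split. That of 11 absorptive colonocyte markers was 10.39, 10.72, 9.76 and 10.31, higher on both B2 and B3 than on B4 and C3. The means of 10 small intestine markers, Fabp2 and Apoa4 among them (6.65, 6.59, 5.87 and 6.11) and of the 8 smooth muscle markers (9.98, 9.56, 9.22 and 8.96) followed the split in the same direction. The goblet cell marker means (11.87, 11.36, 10.82 and 11.79) did not follow it. Nor did the means of hepatocyte markers (5.61, 5.82, 5.67 and 5.66) and neutrophil markers (5.99, 9.02, 7.05 and 7.33). The part of these cells in the split was not tested. A similar order was seen after 3 cycles, where G2 and G3 were the lowest for Cyp2c55 (8.98 and 8.78, beside 11.57, 10.83 and 11.12 on F1, F3 and F5) and for Cyp2c65 (6.23 and 6.63). In 11 of the 14 members with the acute gap (78.6%) both G arrays were under all F arrays, as in 25 of all 130 members (19.2%) and 12.6% of all probe sets. The difference was over 1 in 2 of the 14. This order too was looked at after the values were seen and is a description. The small intestine markers were 6.55, 6.49 and 6.57 on the F arrays and 6.18 and 6.20 on the G arrays. The smooth muscle markers were at least 10.91 on F against 10.47 and 10.47 on G. Pan-epithelial means were also lower on G (10.80 and 10.66) than on F (10.84 to 10.93). So were goblet cell means (G 11.86 and 11.80, F 11.96 to 11.97). Absorptive colonocyte means did not separate (F 10.57 to 10.89, G 10.60 and 10.03). Hepatocyte means (F 5.72 to 5.88, G 6.25 and 6.21) and neutrophil means (F 5.68 to 5.84, G 6.04 and 7.08) went the other way. The part of these cells in this order was not tested. All these arrays are in the high set. After 2 cycles Cyp2c55 read 9.25, 9.71, 10.30, 9.99 and 10.49, all under the controls, with a difference of -1.16 (adjusted p = 0.507).

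**Figure D5:**
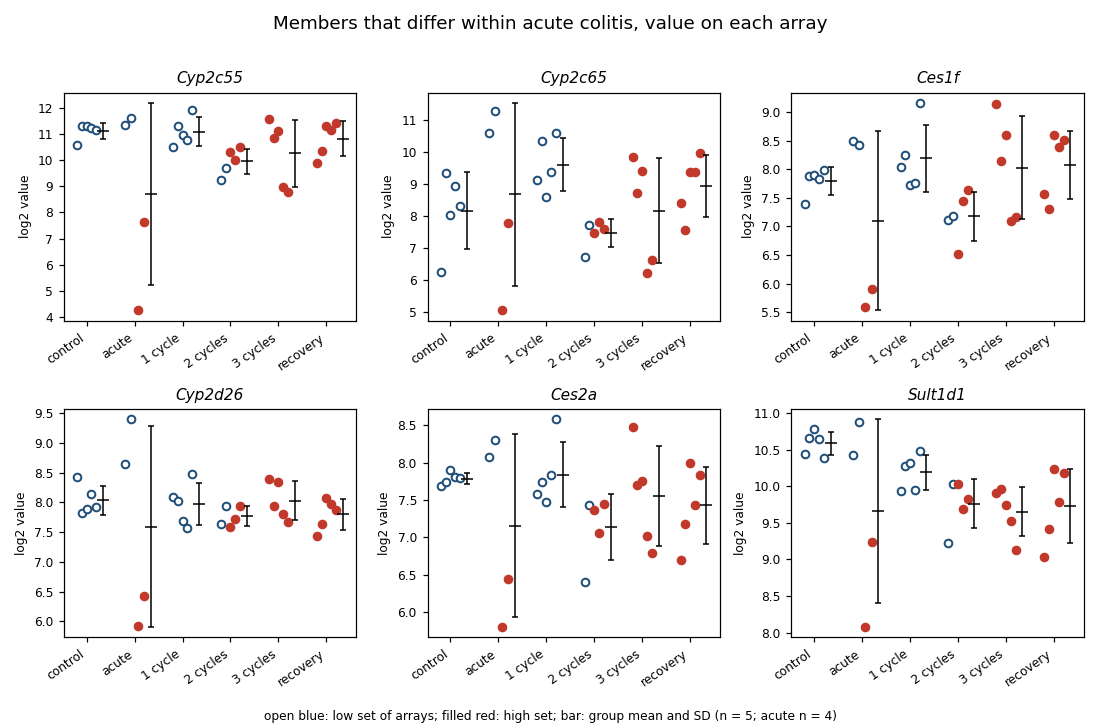
Log2 values on each array of 6 members that differ within acute colitis, by group. Open blue points are arrays of the low set and filled red points arrays of the high set, and bars give group mean and SD (n = 5, acute n = 4). In each panel the acute arrays B2 and B3 (open) are within or above the control range, C3 is lower and B4 is the lowest of all 29 arrays.

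The other genes of the pathway changed in part. Of 20 sensors and regulators 0 were called by limma in any comparison. At an unadjusted p under 0.05, 4 were higher and 8 lower in acute colitis, beside 17.7% and 16.1% of all probe sets. Nr1i2, the pregnane X receptor, was lower by -0.35 in acute colitis (adjusted p = 0.0087), -0.31 after 1 cycle (adjusted p = 0.0334), -0.31 after 3 cycles (adjusted p = 0.0181) and -0.31 in recovery (adjusted p = 0.0262), and its difference after 2 cycles was -0.27 (adjusted p = 0.0752). Ahr, the aryl hydrocarbon receptor, was lower by -0.33 in acute colitis (adjusted p = 0.000591) and higher by 0.24 in recovery (adjusted p = 0.0116). Hnf4a was lower by -0.28 in acute colitis (adjusted p = 0.00854), and Nfe2l2, which encodes Nrf2, by -0.33 after 3 cycles (adjusted p = 0.0232). Cdx2, an intestinal identity factor, gave 0.36 in acute colitis (adjusted p = 0.488).

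Of 27 other oxidases and reductases 7 were called lower in acute colitis and 0 higher, led by the flavin monooxygenase Fmo2 (-1.94, adjusted p = 4.76e-05), the monoamine oxidase Maob (-1.85, adjusted p = 2.02e-06) and the alcohol dehydrogenase Adh1 (-1.60, adjusted p = 0.000345). Fmo2 was called lower in the other groups as well, by -1.16, -1.25, -1.41 and -1.04. The retinal oxidizing Aldh1a3 was higher in recovery (1.36, adjusted p = 0.0105). Of 12 electron donors and hydrolases 2 were lower in acute colitis, the deacetylase Aadac (-1.63, adjusted p = 0.00286) and the epoxide hydrolase Ephx1 (-1.03, adjusted p = 3.13e-06). Por, the electron donor of the P450 enzymes, has no probe set of its own symbol alone. Smooth muscle markers moved in the same direction in acute colitis, with a mean of 10.72 to 11.14 in controls and 8.96 to 9.98 in acute colitis. The absorptive colonocyte markers were mixed. Of 11 such markers 4 were called lower and 0 higher, and by adjusted p alone 5 were lower and 3 higher. The part of these cells in the decreases, members included, was not tested. In recovery, where 7 members were called lower, the smooth muscle mean was 10.64 to 10.98. In the groups after 1, 2 and 3 cycles and in recovery, 6, 6, 7 and 6 of 7 B and plasma cell markers were called higher than control, and their part was not tested either.

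Of 15 Nrf2 target genes of redox defence 3 were higher in acute colitis and 0 lower: the cystine carrier Slc7a11 (2.36), the haem oxygenase Hmox1 (1.27) and the glutathione peroxidase Gpx2 (1.22). Slc7a11 was called higher in all 5 groups, while the Gstm genes, also known as Nrf2 targets, were lower or not called. Of 19 transporters 2 were lower in acute colitis, the peptide carrier Slc15a1 (-2.66, adjusted p = 1.61e-05) and the efflux pump Abcb1a (-1.65, adjusted p = 0.00218). Slc15a1 was lower as well after 1 cycle (-1.45), after 3 cycles (-1.17) and in recovery (-1.61). Of 21 genes of cofactor supply and other conjugation 1 was higher in acute colitis, the glucuronidase Gusb (1.02), and 1 lower, the sulphate carrier Slc26a2 (-1.07).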

How the data were processed

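Total RNA from snap frozen colon of 29 mice was hybridized to Affymetrix Mouse Gene ST arrays. The authors normalized the arrays with RMA (background correction, quantile normalization and summary of the probes) in R 2.12.2, per the submitters' processing notes, and deposited 1 log2 value per probe set and array. These values were used without further normalization or filter, and 0 columns of values were left out. Background levels of single probes are not in the values used here, so the number of arrays limits the precision. Since RMA gives all arrays about the same distribution, changes are relative to the other transcripts.

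Groups came from the labels. limma 3.58.1 in R 4.3.3 (lmFit, contrasts.fit, eBayes) was fitted with 1 mean per group, without covariates, and p-values were adjusted over all 35511 probe sets within each comparison. Calls were made at an adjusted p under 0.05 together with more than a 2-fold difference. The steps were tested on simulated data. Gene symbols came from the annotation of the array, and the Entrez identifiers of all 130 members carry the same symbol in RefSeq. Members and gene lists were chosen with earlier results of these data known. The rule for naming took, per comparison and direction, up to 8 called members of largest change. Per family it took the brightest member and the one of smallest F-test p. It also took the members that the study names, fixed regulators, and up to 3 called genes per pathway list. Chosen by family, but in no call and not described further, were Cyp2a12, Cyp2a22, Cyp2b13, Cyp2b23, Cyp2t4, Gstt3, Ugt3a1 and Ugt8a. Members named beyond that rule were chosen after their values were seen. RefSeq promoters (GRCm38.p6) were searched for 6 motifs on both strands.

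The alternatives were fits of the groups under comparison alone, array weights, the label letter as a random block, a second quantile normalization, arrays centred on their median, leaving out dim probe sets or those without 1 symbol, no fold minimum, all probe sets of a gene, the set of arrays as a covariate, fits within a set, a 150-base promoter window, and each array left out in turn. Leaving out B4 and C3 together was added after the data were seen.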

Additional observations from a re-analysis of the deposited data

Results flagged for a closer look

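Of 126 groups of values examined for an array far from the others, 5 held one, and chance gives about 1 in 20. Cyp2f2 read 5.79 on 3-cycle array F1, with 7.30 to 7.78 on the others. Sult1a1 read 7.38 on 2-cycle array D4, with 8.34 to 8.48 on the others, and the mean of the 16 Sult members was 5.21 on that array, with 5.36 to 5.42 on the others. Gsta4 read 9.33 on acute array B2, with 8.34 to 8.48 on the others. Cyp2c55 read 10.58 on control array A1, with 11.16 to 11.31 on the others.

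Members also differed between groups given DSS, in a test of that difference. Recovery was above 2 cycles by 1.12 for Cyp4f39 and by 1.25 for Gsta4. Acute colitis differed from the mean of the 1-, 2- and 3-cycle groups by -2.16 for Cyp2c68, -1.73 for Cyp2f2, -1.66 for Cyp2d12, -1.15 for Cyp2c67 and -1.0 for Ces2g. Causes of these differences were not tested.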

How the results depend on the processing

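Of 47 calls of members, 22 kept their call in all planned settings, 33 in all fits that left out 1 array, and 0 changed direction. With the set of arrays as a covariate, the members called lower were 1 after 3 cycles (from 8), 1 in recovery (from 7) and 0 after 2 cycles (from 3), and those called higher were 2 in acute colitis, 0 after 2 cycles, 0 in recovery and 1 against 2 cycles. In that fit the differences after 3 cycles were -1.93 for Cyp2c68 (adjusted p = 0.0522), -1.11 for Cyp2d12, -1.70 for Cyp2f2, -0.45 for Sult1a1, -0.47 for Sult1c2, -0.85 for Ugt2b35 and -0.34 for Ces1d, and in recovery -1.73 for Cyp2c68 (adjusted p = 0.1), -1.33 for Cyp2d12, -1.17 for Cyp2d13, -0.33 for Sult1a1, -0.43 for Sult1c2 and -0.77 for Ugt2b35. Within the low set 4 members were higher in acute colitis and 0 after 2 cycles, without B4 and C3 together 4 in acute colitis, and within the high set 0 were higher in recovery than after 2 cycles. The comparisons of 3 cycles, recovery and the chronic mean could not be fitted within a set. Without a fold minimum the numbers higher and lower were 6 and 34 in acute colitis, 4 and 13 after 1 cycle, 2 and 7 after 2 cycles, 6 and 20 after 3 cycles, 5 and 19 in recovery, and 2 and 23 for acute colitis against the chronic mean. With only the groups compared, 5 were lower after 2 cycles and 0 higher in recovery than after 2 cycles. Without dim probe sets (53 members tested) 1 was higher in recovery than after 2 cycles, 0 in recovery than in control, and 3 were lower in acute colitis than the chronic mean. The letter as a block (correlation -0.07) gave 2 higher in acute colitis, array weights and centring gave 1 higher after 1 cycle, and quantile normalization gave 2 higher in recovery. Family medians that moved were Gstm in acute colitis within the low set (-0.78), Cyp2b in recovery against 2 cycles within the high set (0.000309), Cyp2j after 2 cycles within the low set (-0.0732), Cyp4 after 3 cycles under quantile normalization (-0.0297) and the covariate (-0.0268), and with the covariate Sult after 3 cycles (-0.0854) and in recovery (-0.0829) and Ugt after 2 cycles (-0.0508). In the 150-base window the members with AGGTCA were 15.1% and those with GCGTG 12.3%. With each array left out in turn, the members higher ranged from 0 to 2 in acute colitis, 0 to 1 after 1 cycle, 1 to 1 after 2 cycles, 0 to 1 after 3 cycles, 0 to 3 in recovery, 0 to 3 in recovery against 2 cycles and 0 to 1 in acute colitis against the chronic mean. Those lower ranged from 15 to 23, 2 to 5, 0 to 2, 6 to 8, 5 to 7, 0 to 0 and 4 to 10 in the same order, and those in the F test from 38 to 45. Arrays that moved a count by over 1.5 times were, for those higher, B3 (0), B4 (2) and C3 (2) in acute colitis, J5, K2, K3, A1 and A2 (1) after 1 cycle, F1 (1) after 3 cycles, L1 (2), M1 (0), M5 (3), N2 (2) and N3 (0) in recovery, D4 (1) and D5, E2, E3, E4, M1, M3 and N3 (0) in recovery against 2 cycles, and B4 and C3 (1) in acute colitis against the chronic mean. For those lower they were K1 (5) after 1 cycle, D4 and A1 (0) and E2, E4, A2, A5 and L1 (1) after 2 cycles, and B2 (10) in acute colitis against the chronic mean. No paired analysis was possible because each mouse belongs to 1 group and a label name such as A1 belongs to 1 array. Signal over background could not be assessed from these values, and 77 members had a mean under the median probe set.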
